A study of Mus musculus with 59 samples.

Results

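The 10 genes described here encode the enzymes that lithium is known to inhibit and the main steps by which cells make, import and use inositol. They are Gsk3a and Gsk3b, the phosphatase genes Impa1, Impa2, Inpp1 and Bpnt1, the synthase gene Isyna1, the transporter gene Slc5a3, and Cdipt and Ppip5k1, whose products use inositol and its phosphates. They were chosen by name, by a rule that uses no measured value, but with earlier results of these data known. All 10, of 18088 genes in the deposited table, passed the filter on low values. RNA of the prefrontal cortex was sequenced from C57BL/6J mice on postnatal day 25. The mice were wild-type (WT) or heterozygous (HT) for Ash1l, which encodes a histone methyltransferase, and had received vehicle, lithium or fluoxetine, a serotonin reuptake inhibitor, through their mother's milk from postnatal day 3 to 24. With both sexes this gave 12 groups of 5 libraries, except HT lithium females with 4, or 59 libraries in all. The labels give neither the kind of Ash1l allele nor the litter of each mouse. The drugs reached the pups through the dam, and which pups shared a dam is not stated, so the tests take account of the spread among these libraries and of no more.

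Lithium is known to act on 2 groups of enzymes that need magnesium. It inhibits glycogen synthase kinase 3 (GSK3), whose forms alpha and beta phosphorylate glycogen synthase, beta-catenin, tau and many other proteins, and it inhibits a family of phosphatases that release inositol, or the adenosine nucleotide AMP, from phosphorylated forms. Inositol is the head group of phosphatidylinositol, the lipid from which phospholipase C makes the second messenger that opens calcium stores. Brain cells obtain it by recycling inositol phosphates, by synthesis from glucose 6-phosphate and by uptake through a sodium-coupled transporter. RNA levels were measured here, not enzyme activity, lithium or inositol.

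The lithium-sensitive phosphatases share a short metal-binding motif, and 3 of its coding sequences are shown because this is the feature that places these genes in 1 family. They are Impa1 (inositol monophosphatase 1), Inpp1 (inositol polyphosphate 1-phosphatase) and, from outside the 10 genes, their relative Impad1, a nucleotidase of the Golgi. Each line gives the coding strand 5′ to 3′ from GENCODE M21 transcripts on GRCm38, with the 6 motif codons in capitals and 24 bases on either side.
Impa1: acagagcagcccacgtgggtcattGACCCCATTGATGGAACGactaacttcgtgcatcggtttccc
Inpp1: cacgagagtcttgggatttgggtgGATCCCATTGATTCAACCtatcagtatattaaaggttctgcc
Impad1: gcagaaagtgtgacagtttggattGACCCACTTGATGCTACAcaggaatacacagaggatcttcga
The motif lies in exon 4 of Impa1 (chr3:10326124-10326141, minus strand) and in exon 2 of Impad1 (chr4:4778206-4778223, minus strand). In Inpp1 it crosses from exon 4 to exon 5 (chr1:52791855-52794479, minus strand, intron included). Between any 2 of the 3 genes, 12 to 14 of its 18 bases were identical.

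The libraries held 24.47 to 36.32 M reads (median 27.98 M), and all values below are normalised read counts, which are counts divided by a size factor for each library. Ash1l itself was at 3641 to 4382 in the 29 HT libraries and at 4703 to 6218 in 29 of the 30 WT libraries. The other WT library, vehicle female replicate 3, had 3557, below every HT library, so its Ash1l level went against its label. Across all genes tested, its deviations from its group's means had a median absolute size of 0.252 on the log2 scale. This was the largest of any library. Whether its Ash1l level reflects genotype or these wider deviations was not tested. The same library was the lowest of all 59 for Gsk3b, Impa1, Inpp1, Bpnt1 and Ppip5k1 and the highest for Isyna1. WT vehicle male replicate 2 was at the opposite end, with the highest Gsk3b and Bpnt1 and the lowest Isyna1, and its deviations from its group's means had the strongest relation to the GC content of the genes of any library (Spearman's rho -0.498 across 17864 genes, which are not independent). The median absolute size of the deviations of WT vehicle male replicate 2 was 0.239, the next largest. Both libraries stayed in the comparisons, and leaving them out was among the alternatives.

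**Figure D1:**
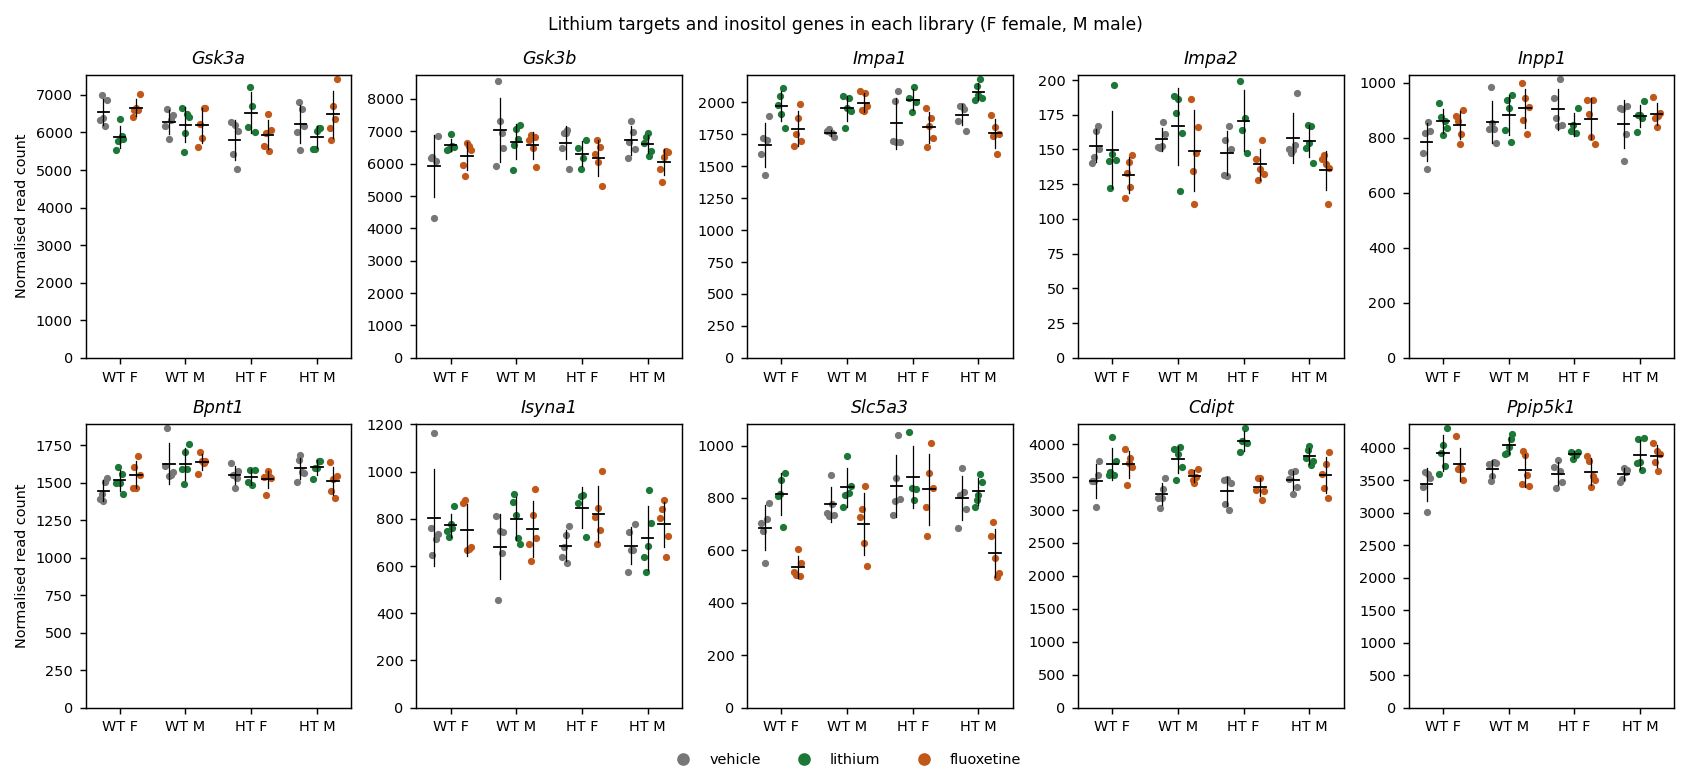
Normalised read count (vertical axes, from 0) of each of the 10 genes in each library (points), by genotype and sex (horizontal axes) and drug (colour), with horizontal bars for group means and vertical lines for 1 SD (n = 5, or 4 for HT lithium females). Lithium libraries of Impa1, Cdipt and Ppip5k1 lay above the vehicle mean of their genotype and sex in 19 of 19 cases, and 1 WT vehicle female library was far below the others of its group for Gsk3b, at 4314.

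Per kilobase of the longest transcript, Gsk3a had the highest level of the 10 genes, with a mean of 2749 normalised counts per kilobase, followed by Cdipt with 1805, and both orders held in 59 of 59 libraries. Gsk3b (779), Bpnt1 (710) and Ppip5k1 (676) lay close together, and their order was not the same in all libraries: Gsk3b was above Bpnt1 in 49 of 59 and Bpnt1 above Ppip5k1 in 41 of 59. Impa1 had 449 and Isyna1 395 per kilobase, with Impa1 higher in 48 of 59 libraries. Inpp1 (150), Slc5a3 (69.5) and Impa2 (29.8) were the lowest, in that order in every library. The per-kilobase ratio of the kinase genes, Gsk3a to Gsk3b, had a median of 3.53 and that of the monophosphatase genes, Impa1 to Impa2, a median of 15.3. These levels depend on the length used: over all merged exons Bpnt1 had 676, Gsk3b 658 and Ppip5k1 299.5 per kilobase, which put Ppip5k1 below Impa1 (345) and Isyna1 (311).

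With lithium, 3 of the 10 genes rose: Cdipt, Impa1 and Ppip5k1, by 0.14 to 0.19 on the log2 scale in the average of the 4 combinations of genotype and sex. Cdipt makes phosphatidylinositol, Impa1 frees inositol from its monophosphate, and Ppip5k1 adds the pyrophosphate of the most highly phosphorylated inositols. The GSK3 genes did not pass the test, nor did the other 3 phosphatase genes, the synthase or the transporter, and none fell. Log2 fold changes are differences of mean log2(normalised count + 1), given with their standard errors, and p-values are from limma over 17875 genes with Benjamini-Hochberg adjustment and a threshold of 0.05. Over all genes 13.1% were called in this comparison, 7.39% as higher and 5.74% as lower. The median of the 10 genes was 0.09 and that of all genes tested 0.004.

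Cdipt (ENSMUSG00000030682, chr7:126975914-126980501, plus strand) encodes phosphatidylinositol synthase, which joins free inositol to a lipid. In WT females it was at 3436, 3441, 3041, 3535 and 3741 with vehicle and at 3535, 3573, 4103, 3532 and 3746 with lithium. In WT males the vehicle libraries had 3191, 3027, 3190.1, 3319.9 and 3489.7 and the lithium libraries 3932, 3457, 3849, 3955 and 3652. The lithium values were the higher ones on the whole, but 2 vehicle libraries of WT females and 1 of WT males lay above the lowest lithium library. HT females had 3457, 3097, 3469, 3002 and 3404 with vehicle against 3883, 4049, 4242 and 4022 with lithium, and HT males 3466, 3585, 3249, 3598 and 3355 against 3798, 3916, 3979, 3687 and 3749. In the HT mice of both sexes the groups did not overlap. The average rise was 0.19 ± 0.028 (adjusted p = 3.84e-06), and all 19 lithium libraries lay above the vehicle mean of their genotype and sex. Here and for the genes below, overlap and the counts of libraries above or below the vehicle mean describe the same values as the test. They are no further evidence, and their share over all genes was not counted.

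Impa1 (ENSMUSG00000027531, chr3:10311956-10331439, minus strand) encodes the more abundant of the 2 inositol monophosphatases, the enzymes on which both recycling and synthesis of inositol depend. WT females had 1597, 1719, 1429, 1705 and 1894 with vehicle and 1981, 2050.0, 1911, 2108 and 1801 with lithium. WT males had 1774, 1792, 1760.0, 1759 and 1727 with vehicle and 2047, 1801, 1958, 2032 and 1935 with lithium. The male groups did not overlap, and in WT females 1 vehicle library, at 1894, lay within the lithium range. In HT females the vehicle group was split, at 1696, 2009, 1689.9, 2092 and 1688, and its upper 2 libraries lay within the lithium group, at 2037, 1921, 2123 and 2005. HT males were at 1856, 1972, 1971, 1945 and 1778 with vehicle and at 2020.3, 2127, 2061, 2179 and 2033 with lithium, again without overlap. The mean over all vehicle libraries was 1793 ± 156 (SD, n = 20) and over all lithium libraries 2007 ± 102 (SD, n = 19). The average rise was 0.17 ± 0.031 (adjusted p = 0.000193), again with 19 of 19 lithium libraries above the vehicle mean of their genotype and sex. An annotated gene on the same strand, Gm38303, covers 9728 bases of Impa1, and reads of the 2 could be divided between them by the authors' counting.

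Ppip5k1 (ENSMUSG00000033526, chr2:121310561-121355396, minus strand) encodes a diphosphoinositol pentakisphosphate kinase. In WT females it was at 3401, 3624, 3011, 3591 and 3535 with vehicle and at 3587, 3922, 4039, 3718 and 4295 with lithium. In WT males it was at 3747, 3479, 3556, 3781 and 3768 and 3896, 3924, 4011, 4126 and 4211. The male groups did not overlap, while in WT females 1 lithium library, at 3587, lay below 2 vehicle libraries. HT females had 3705, 3381, 3803, 3635 and 3463 and, with lithium, 3932, 3825, 3893 and 3932, and HT males 3466, 3517, 3685, 3626 and 3655 and 3759.9, 4135, 3772, 3660.3 and 4140.2. The HT female groups were separate, and in HT males 1 lithium library lay within the vehicle range. The average rise was 0.14 ± 0.027 (adjusted p = 0.00034), with 19 of 19 lithium libraries above the vehicle mean. Ppip5k1 overlaps Map1a on the other strand by 272 bases, and Map1a, at a mean of 37740, was not called with lithium (0.05 ± 0.062, adjusted p = 0.619).

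**Figure D2:**
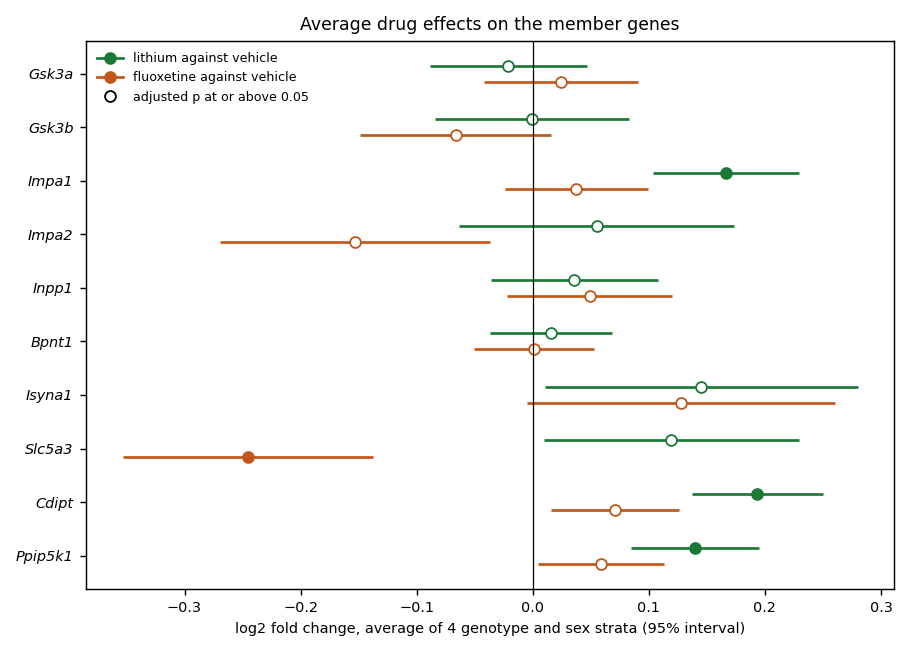
Average log2 fold change against vehicle (horizontal axis) of each of the 10 genes (vertical axis) for lithium and fluoxetine, with 95% intervals as lines and filled points where the adjusted p was below 0.05. With lithium the filled points are Cdipt at 0.19, Impa1 at 0.17 and Ppip5k1 at 0.14, and with fluoxetine Slc5a3 at -0.25; both drugs were compared with the same vehicle libraries.

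For the kinase genes the intervals were narrow around 0. Gsk3a (ENSMUSG00000057177, chr7:25228258-25237851, minus strand) ranged from 5040 to 6986 with vehicle (median 6243, n = 20) and from 5488 to 7207 with lithium (median 6036, n = 19). The ranges lay over each other, and the average difference was -0.02 ± 0.034 (adjusted p = 0.737), with a 95% interval of -0.09 to 0.05. Gsk3b (ENSMUSG00000022812, chr16:38089001-38246084, plus strand) ranged from 4314 to 8543 with vehicle (median 6584) and from 5807 to 7199 with lithium (median 6554). Both ends of its vehicle range came from the 2 libraries named above. The average difference of Gsk3b was -0.0007 ± 0.042 (adjusted p = 0.993), with a 95% interval of -0.08 to 0.08. Gsk3a overlaps an antisense gene, 9130221H12Rik, over 1577 bases, and that gene had a mean of 146.

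Of the other phosphatase genes, Impa2 encodes the second inositol monophosphatase and had 131 to 190.3 normalised counts with vehicle (median 151) and 120.4 to 199.5 with lithium (median 162), a difference of 0.05 ± 0.059 (adjusted p = 0.592). Inpp1 (ENSMUSG00000026102, chr1:52785427-52817688, minus strand), whose product removes a phosphate from inositol bisphosphate and trisphosphate, had 687 to 1014 with vehicle (median 845) and 785 to 956 with lithium (median 874). Its difference was 0.04 ± 0.036 (adjusted p = 0.563). Bpnt1 (ENSMUSG00000026617, chr1:185332149-185357777, plus strand) encodes bisphosphate nucleotidase, the enzyme that clears the by-product of sulfation reactions. It had 1382 to 1866 with vehicle (median 1552) and 1423 to 1759 with lithium (median 1586), a difference of 0.02 ± 0.026 (adjusted p = 0.75). For Bpnt1 the 95% interval was -0.04 to 0.07, and for Impa2, the gene with the fewest reads, it was wider, at -0.06 to 0.17.

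The genes of inositol supply had positive differences that did not pass the adjusted threshold. Isyna1 (ENSMUSG00000019139, chr8:70594373-70597290, plus strand) encodes the synthase that makes inositol phosphate from glucose 6-phosphate. With lithium it was at 871, 905, 814, 719 and 695 in WT males and at 869, 898, 903 and 721 in HT females, against 810.2, 455, 750.4, 653 and 744 and 638, 680.3, 729.9, 613 and 771 with vehicle. In WT females the vehicle group, at 762, 648, 1166, 715 and 735, held the single highest library of all 59, and the lithium group had 748, 723, 776, 762 and 853. In HT males the values were 574, 744, 669, 669 and 779 with vehicle and 637, 575, 686, 921 and 783 with lithium. The lithium values were above the vehicle mean in all 9 libraries of WT males and HT females and in 3 of 10 libraries of the other 2 combinations. The average difference was 0.15 ± 0.067 (adjusted p = 0.148), and without WT vehicle female replicate 3 it was 0.18 (adjusted p = 0.0406). WT vehicle male replicate 2 held the lowest value of all 59, at 455. With both of these libraries left out, Isyna1 did not pass. Slc5a3, the sodium and inositol cotransporter, differed by 0.12 ± 0.055 (adjusted p = 0.143), and its values are given with fluoxetine below. With the trends of each library over GC content and gene length removed, the difference of Slc5a3 was 0.16 and passed (adjusted p = 0.0301).

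The 3 called genes were also examined within each genotype and sex. In WT females 2 of the 10 genes passed, Impa1 with 0.24 ± 0.062 (adjusted p = 0.0284) and Ppip5k1 with 0.19 ± 0.054 (adjusted p = 0.044), where 2.45% of all genes were called. Without WT vehicle female replicate 3 neither passed (Impa1 0.19, adjusted p = 0.149, and Ppip5k1 0.14, adjusted p = 0.225), nor without WT lithium female replicate 2 or 4. Impa1 alone was also lost without lithium replicate 1 (adjusted p = 0.0555), and Ppip5k1 without lithium replicate 3 or 5 or vehicle replicate 1 or 4 (adjusted p from 0.0539 to 0.13). In HT females 1 gene passed, Cdipt with 0.30 ± 0.059 (adjusted p = 0.0133), where 2.98% of all genes were called. That call was lost without HT lithium female replicate 3 (0.28, adjusted p = 0.0696), HT vehicle female replicate 2 (0.28, adjusted p = 0.0539) or HT vehicle female replicate 4 (0.27, adjusted p = 0.0711), and with the GC and length trends removed (0.17, adjusted p = 0.327). In WT males none of the 10 passed (0.476% of all genes called), with Cdipt nearest at 0.22 ± 0.055 (adjusted p = 0.0502). There, 3 of the 10 had an unadjusted p below 0.05, beside 2691 of all genes tested. Cdipt passed in WT males without lithium replicate 5 (0.23, adjusted p = 0.0424) or vehicle replicate 5 (0.24, adjusted p = 0.0292). In HT males none passed either (0.252% of all genes called), with Cdipt at 0.15 ± 0.055 (adjusted p = 0.222). Again 3 of the 10 were below 0.05 unadjusted, beside 2203 of all genes tested. The differences of Cdipt, Impa1 and Ppip5k1 were positive in all 4 combinations, at 0.11 to 0.30, 0.13 to 0.24 and 0.12 to 0.19.

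**Figure D3:**
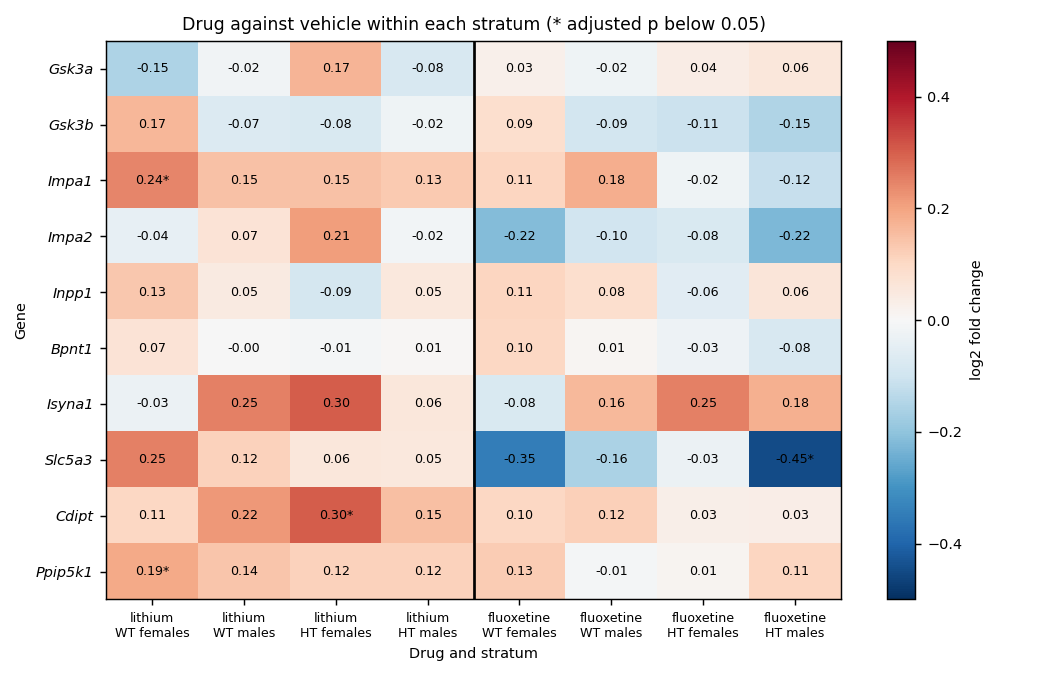
Log2 fold change against vehicle (colour and printed value) of each of the 10 genes (rows) for lithium and fluoxetine within each genotype and sex (columns), with an asterisk where the adjusted p was below 0.05. Impa1, Cdipt and Ppip5k1 are positive in all 4 lithium columns, and Slc5a3 is lowest in HT males (-0.45) and WT females (-0.35) given fluoxetine.

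Whether the lithium response of these genes differed by genotype or by sex was tested directly. Over the 10 genes, 2 drugs and the genotype by sex contrast in vehicle, 50 interaction tests by limma gave none that passed, and 4 had an unadjusted p below 0.05. DESeq2 called 1, the fluoxetine by genotype term of Impa1. Of the 4 by limma, 2 were for fluoxetine by genotype and 2 for genotype by sex in vehicle. There, 2231 and 3677 of all genes tested were below 0.05 unadjusted. The share of all genes called was 2.9% for genotype by sex in vehicle and 0.425% for fluoxetine by sex. For lithium by genotype and for lithium by sex 0% of all genes were called, and none of the 10 was below 0.05 unadjusted. For Gsk3a the response was -0.15 ± 0.067 (adjusted p = 0.168) in WT females and 0.17 ± 0.071 (adjusted p = 0.156) in HT females. Neither passed, although all 5 lithium libraries lay below the vehicle mean in WT females and all 4 above it in HT females, and the lithium by genotype term for Gsk3a, over both sexes, was 0.13 ± 0.068 (adjusted p = 0.533). A term for genotype and sex together, added after these values were seen, was 0.39 ± 0.14 for Gsk3a (adjusted p = 0.104; 0.979% of all genes called), and with the GC and length trends removed it was -0.01 ± 0.16 (adjusted p = 0.996).

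The genes around these enzymes moved in both directions with lithium. Among 28 other enzymes of inositol phosphate metabolism, 4 rose and 3 fell, where 7.39% of all genes were called as higher and 5.74% as lower (median 0.04 against 0.004 for all genes). The ones that fell encode diphosphoinositol phosphatases, which remove the pyrophosphate that Ppip5k1 and its relatives add: Nudt3 (-0.16 ± 0.032, adjusted p = 0.000403), Nudt10 (-0.18 ± 0.039, adjusted p = 0.00124) and Nudt4 (-0.16 ± 0.05, adjusted p = 0.0253). Nudt10 is uncertain, since Nudt11 is a near-identical copy and reads can be divided between them. Nudt3 had 7971 to 10248 normalised counts with vehicle and 7087 to 9401 with lithium, with 16 of 19 lithium libraries below the vehicle mean of their genotype and sex. Of those that rose, Inpp5k (0.11 ± 0.032, adjusted p = 0.0143) and Inpp5e (0.09 ± 0.029, adjusted p = 0.0313) are inositol phosphate or phosphoinositide 5-phosphatases and Itpk1 (0.13 ± 0.041, adjusted p = 0.0248) is an inositol phosphate kinase. The calls of Inpp5k (0.09, adjusted p = 0.0639) and Inpp5e (0.06, adjusted p = 0.167) were lost with the GC and length trends removed, and that of Inpp5e also in the fit of only the groups compared (0.09, adjusted p = 0.0587). With fluoxetine, against the same vehicle libraries, 1 of the 28 enzymes rose and 2 fell, where 13.5% of all genes were called. Nudt4 was then below the vehicle mean in 18 of 20 libraries, Nudt3 in 14 and Nudt10 in 10. Inpp5k was above it in 17 of 20, Itpk1 in 16 and Inpp5e in 15.

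In the phosphoinositide cycle, which uses the product of Cdipt, 5 of 35 genes rose and none fell (median 0.03). Over all genes 7.39% were called as higher and 5.74% as lower. In either direction the list's share was near the 13.1% called over all genes. Pitpnm2, a phosphatidylinositol transfer protein, had 5748 to 9098 with vehicle (median 7837.2) and 7365 to 11162 with lithium (median 9266), and rose by 0.30 ± 0.048 (adjusted p = 2.73e-05). Pi4ka, the kinase that makes phosphatidylinositol 4-phosphate at the plasma membrane, had 6969 to 9664 with vehicle (median 8798) and 8577 to 10857 with lithium (median 9969), and rose by 0.18 ± 0.031 (adjusted p = 4.26e-05). All 19 lithium libraries lay above the vehicle mean for Pi4ka and 18 of 19 for Pitpnm2. The others were the lipid kinase genes Pip4k2c (0.15 ± 0.041, adjusted p = 0.0118) and Pip5k1a (0.11 ± 0.037, adjusted p = 0.0356) and the phospholipase gene Plcd4 (0.17 ± 0.061, adjusted p = 0.0471). With the GC and length trends removed 3 of the 5 were called, without Pip4k2c (adjusted p = 0.0925) and Pip5k1a (adjusted p = 0.0719). Pip5k1a was also lost without the 2 libraries that stood apart (0.09, adjusted p = 0.0596). Plcd4 missed the threshold in 5 of 9 alternatives, with adjusted p up to 0.0666. The count of genes called was also 3 without HT lithium female replicate 1 or 4, WT lithium female replicate 3 or 5, or WT lithium male replicate 3. With fluoxetine 2 of the 35 genes rose and 1 fell, beside 13.5% of all genes called. Pi4ka was then above the vehicle mean in 17 of 20 libraries, Pitpnm2 in 15, Pip4k2c in 14, Pip5k1a in 10 and Plcd4 in 5.

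Among 25 partners and regulators of GSK3, 3 rose and 4 fell, again beside 7.39% and 5.74% of all genes (median -0.05 against 0.004). Ctnnb1, which encodes beta-catenin, the substrate that GSK3 marks for breakdown, was at 14053 to 20753 with vehicle (median 18193) and at 14306 to 16620 with lithium (median 15658). All 19 lithium libraries were below the vehicle mean of their genotype and sex, and Ctnnb1 fell by 0.22 on the log2 scale (SE 0.028, adjusted p = 6.11e-07). Frat2, whose product binds GSK3 and keeps it from beta-catenin, was at 137 to 228 with vehicle and at 97.2 to 174 with lithium, below the vehicle mean in 19 of 19, a difference of -0.43 ± 0.059 (adjusted p = 1.02e-06). Its relative Frat1 differed by -0.32 ± 0.079 (adjusted p = 0.00483) and Apc, a scaffold of the complex that holds GSK3 and beta-catenin, by -0.22 ± 0.06 (adjusted p = 0.00959). Those that rose included Eif2b5, a GSK3 substrate of translation initiation (0.09 ± 0.023, adjusted p = 0.0074), and Tsc2, another substrate (0.14 ± 0.037, adjusted p = 0.0103), and the call of Eif2b5 was lost with the GC and length trends removed (0.06, adjusted p = 0.134). Axin2, a transcriptional target of beta-catenin named here after its value was seen, had 0.04 ± 0.039 (adjusted p = 0.591). With fluoxetine 1 of the 25 genes rose and 3 fell, beside 13.5% of all genes called. Ctnnb1 was then below the vehicle mean in 9 of 20 libraries, Frat2 in 14 and Apc in 15. Frat1 was above it in 13 of 20, Eif2b5 in 14 and Tsc2 in 10.

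Of 10 genes of osmolyte and inositol transport, none rose and 1 fell, beside 7.39% and 5.74% of all genes. The 1 that fell was the water channel gene Aqp4 (-0.42 ± 0.066, adjusted p = 1.53e-05), which is also a marker of astrocytes. Among 3 other lithium-sensitive phosphatases and phosphomutases none passed, with Impad1 at -0.11 ± 0.05 (adjusted p = 0.148) and Pgm2 at -0.10 ± 0.064 (adjusted p = 0.34). Impad1 passed without WT vehicle female replicate 3 (-0.14, adjusted p = 0.0247). With fluoxetine 1 of the 10 transport genes rose and 1 fell, beside 13.5% of all genes called. Aqp4 was then below the vehicle mean in 17 of 20 libraries.

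**Figure D4:**
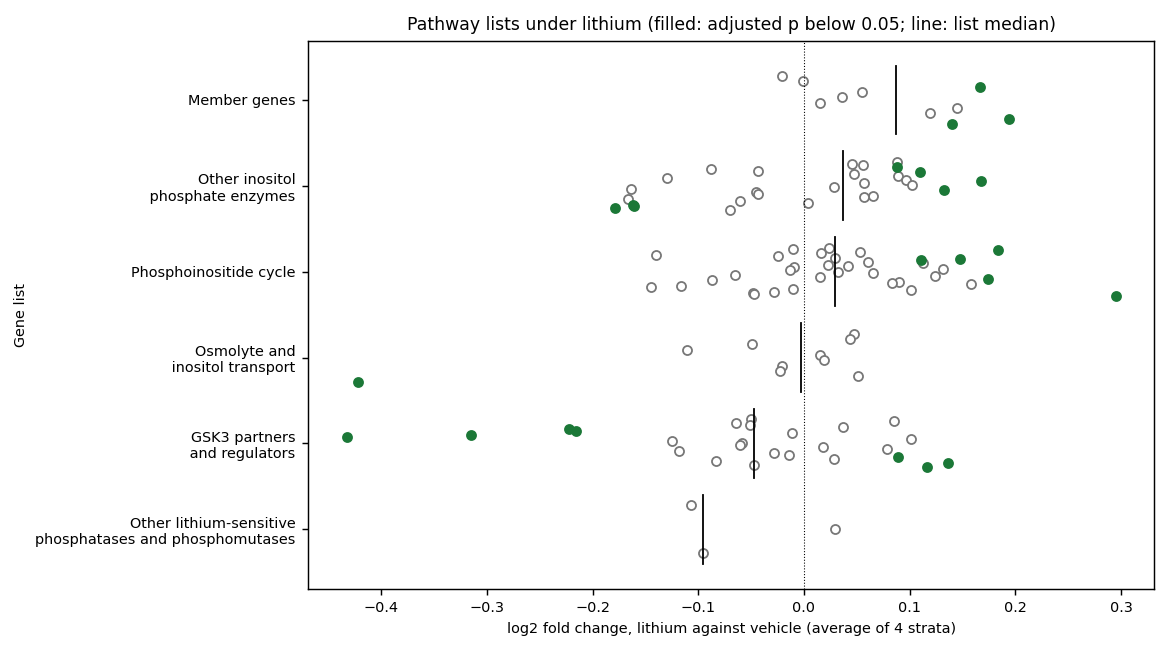
Average log2 fold change with lithium (horizontal axis) of every tested gene (points) in the 10 genes and 5 related lists (vertical axis), with filled points where the adjusted p was below 0.05 and a vertical line at each list's median. The phosphoinositide cycle has 5 filled points, all above 0, while the GSK3 partners have 4 below 0, led by Frat2 at -0.43, and 3 above.

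Markers of other cell types moved with lithium as well, and their part in the results above was not tested. Of 6 astrocyte markers 3 fell (Aqp4, Gja1 and Slc1a3) and none rose, where 5.74% of all genes were called as lower and 7.39% as higher, and the summed level of the list was 32970 to 42493 with vehicle (median 37290) and 26238 to 37582 with lithium (median 32696). Of 6 microglial markers 2 fell, with sums of 7963 to 11119 with vehicle and 6884 to 9889 with lithium. Of 5 endothelial markers 3 fell and 1 rose, with sums of 5454 to 9744 and 5260 to 6255, and of 5 markers of pericytes and meninges 3 fell, with sums of 4722 to 10186 and 5154 to 7215. The vehicle and lithium ranges overlapped for each of these 4 lists, and the highest sums of the last 2 were in WT vehicle females. Of 8 markers of cortical excitatory neurons 1 fell (Rorb), with sums of 38115 to 73720 with vehicle and 49414 to 73468 with lithium, and of 6 interneuron markers 1 rose (Pvalb). None of 6 oligodendrocyte, 2 precursor, 5 choroid plexus, 7 striatal or 5 olfactory bulb markers passed. The sums for choroid plexus (70.2 to 7695), striatum (3809 to 15272) and olfactory bulb (2969 to 21631) varied widely between libraries, and no marker was at 0 in every library. In HT females the olfactory bulb sum was 4277 to 20383 with vehicle (median 14023) and 4157 to 4712 with lithium. The median lithium difference of that list was -1.75 in HT females, -1.13 in WT males, -0.54 in HT males and 0.82 in WT females. In bulk tissue, fewer cells of a type and less RNA per cell cannot be told apart.

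With fluoxetine, compared with the same vehicle libraries as lithium, 1 of the 10 genes passed in the average: Slc5a3, the inositol transporter, fell, where 13.5% of all genes were called and 6.6% as lower. Slc5a3 (ENSMUSG00000089774, chr16:92058322-92087473, plus strand) was at 704, 675, 551, 719 and 782 in WT females with vehicle, at 519, 508, 605, 501 and 551 with fluoxetine and at 806, 816, 869, 689.6 and 895 with lithium. HT males had 687, 812, 914, 823 and 758 with vehicle, 653, 710.1, 569.9, 499 and 512 with fluoxetine and 767, 792, 812, 893 and 863 with lithium. In both of these combinations the fluoxetine libraries were the low ones, with an overlap of 1 vehicle library in WT females and 1 fluoxetine library in HT males. WT males had 744, 729.7, 889, 778 and 735 with vehicle, 728, 759, 627, 847 and 541 with fluoxetine and 765, 811, 962, 819 and 847 with lithium. In HT females the values were 736, 788, 875, 1039 and 794 with vehicle, 764, 654, 897, 1010.4 and 838 with fluoxetine and 1053, 839.9, 793 and 833 with lithium, and the 3 groups lay over each other.

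Of the 6 astrocyte markers 2 fell with fluoxetine, with sums of 28499 to 38534, and of the 5 endothelial markers 3 fell, with sums of 4621 to 6215. Of 6 microglial markers 1 fell (P2ry12), 1 of 2 oligodendrocyte precursor markers rose (Cspg4) and 1 of 5 markers of pericytes and meninges rose (Pdgfrb), with none called in the other 6 lists. Among all 17875 genes 1241 were called as higher with fluoxetine and 1179 (6.6%) as lower. The part of these markers' cell types in the result for Slc5a3 was not tested. The average fall of Slc5a3 was -0.25 ± 0.054 (adjusted p = 0.0015), with 17 of 20 fluoxetine libraries below the vehicle mean of their genotype and sex. Within the combinations it passed in HT males (-0.45 ± 0.11, adjusted p = 0.00971; 5.74% of all genes called) and not in WT females (-0.35 ± 0.11, adjusted p = 0.0625; 2.85% called), WT males (-0.16 ± 0.11, adjusted p = 0.477; 0.85% called) or HT females (-0.03 ± 0.11, adjusted p = 0.965; 0% called). The call in HT males was lost without HT fluoxetine male replicate 4 (-0.39, adjusted p = 0.0623), and WT females passed without WT vehicle female replicate 3 (-0.42, adjusted p = 0.0249). Neither the genotype term (0.02 ± 0.11, adjusted p = 0.967) nor the sex term (0.12 ± 0.11, adjusted p = 0.751) of the fluoxetine response passed. A term for genotype and sex together, added after these values were seen, was 0.61 ± 0.22 (adjusted p = 0.434 by limma, unadjusted p = 0.00675; 0.00559% of all genes called).

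Slc5a3 begins inside the first exon of another gene on the same strand, Mrps6, which encodes a mitochondrial ribosomal protein. In GENCODE M21 exon 1 of Mrps6 spans chr16:92058270-92058480 and exon 1 of Slc5a3 spans chr16:92058322-92058480, and the promoter windows of the 2 genes in RefSeq share 286 of 300 bases. The 198 bases up to the first annotated start (chr16:92058072-92058269, plus strand, RefSeq on GRCm38.p6) are shown because they lie just before the annotated starts of both genes, with the GC boxes (GGGCGG on either strand) in capitals.
Slc5a3 and Mrps6: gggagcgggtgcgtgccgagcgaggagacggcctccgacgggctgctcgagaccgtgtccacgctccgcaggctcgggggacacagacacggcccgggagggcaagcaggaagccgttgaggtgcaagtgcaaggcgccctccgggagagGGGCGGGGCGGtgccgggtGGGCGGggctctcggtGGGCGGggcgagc
The full window of 300 bases held 4 GC boxes, of which the first 2 overlap by 1 base. Of 32851 promoters of that length 35.7% held at least 1 and 5.49% held 4 or more. Among the 7 of the 10 genes with an entry in that table, Inpp1 had 2 and Gsk3a 1, and the windows of Gsk3b, Bpnt1, Isyna1 and Ppip5k1 did not hold these letters. The window of Ppip5k1 (chr2:121350964-121351263) lies inside the gene's span in GENCODE M21, downstream of its outermost annotated start. A match is a description of the sequence and not evidence of binding.

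Mrps6 itself was at 518, 436, 577, 517 and 487 in WT females with vehicle and at 438, 467, 387, 423 and 423 with fluoxetine, and in HT males at 457, 488, 451, 475 and 485 and 479, 506, 458, 364 and 500.2. Its values were lower with fluoxetine in WT females, with an overlap of 1 vehicle library, and not in HT males, where the ranges lay over each other. Mrps6 passed neither in the average (-0.09 ± 0.039, adjusted p = 0.123) nor in WT females (-0.24 ± 0.078, adjusted p = 0.0723) or HT males (-0.04 ± 0.078, adjusted p = 0.819). The 2 genes share exon sequence, and Gm49711 is annotated over all 29152 bases of Slc5a3 on the same strand, so counts are uncertain where the authors' counting divides reads between these genes.

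**Figure D5:**
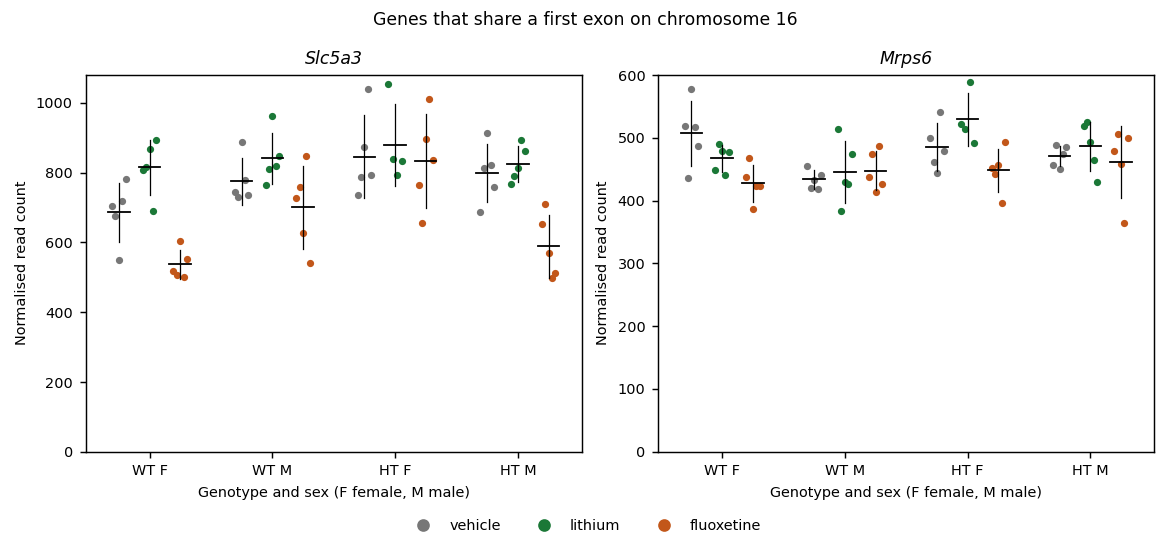
Normalised read count (vertical axes, from 0) of Slc5a3 and Mrps6 in each library (points), by genotype and sex and by drug, with bars for group means and lines for 1 SD (n = 5, or 4 for HT lithium females). Slc5a3 is low with fluoxetine in WT females (501 to 605) and HT males (499 to 710.1), while Mrps6 with fluoxetine in HT males lies at 364 to 506, around its vehicle values.

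The other 9 genes did not pass with fluoxetine. Impa2 was nearest, with 110.7 to 186.7 normalised counts (median 138) against 131 to 190.3 with vehicle and -0.15 ± 0.058 (adjusted p = 0.0675), below the vehicle mean in 17 of 20 libraries. Cdipt had 0.07 ± 0.028 (adjusted p = 0.0768), above the vehicle mean in 16 of 20. Leaving out HT fluoxetine male replicate 4 or WT fluoxetine female replicate 2 brought Cdipt past the threshold (both 0.08, adjusted p = 0.0481 and 0.0491), and leaving out WT fluoxetine male replicate 1 did so for Impa2 (-0.17, adjusted p = 0.0328). For Impa1 the fluoxetine response was 0.18 ± 0.062 (adjusted p = 0.114) in WT males, where the groups did not overlap, and -0.12 ± 0.062 (adjusted p = 0.262) in HT males. The genotype term of the response of Impa1 was -0.21 ± 0.062 (adjusted p = 0.139) by limma, where 0.0392% of all genes were called. The same term passed with DESeq2 (adjusted p = 0.0463), to which the limma share does not apply. The range of the count of all genes over the alternatives is given in the last section. Gsk3a had 0.02 ± 0.033 (adjusted p = 0.681) and Gsk3b -0.07 ± 0.041 (adjusted p = 0.297), with 95% intervals of -0.04 to 0.09 and -0.15 to 0.02. Isyna1 had 0.13 ± 0.066 (adjusted p = 0.197), above the vehicle mean in 15 of 20 libraries. Ppip5k1 had 0.06 ± 0.027 (adjusted p = 0.138), above it in 14 of 20. In the average Impa1 had 0.04 ± 0.031 (adjusted p = 0.45), Inpp1 0.05 ± 0.035 (adjusted p = 0.382) and Bpnt1 0.001 ± 0.026 (adjusted p = 0.983).

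Compared directly, 5 of the 10 genes were higher with lithium than with fluoxetine and none lower, where 13.9% of all genes were called and 7.74% as higher. The transporter gene Slc5a3 differed most, by 0.36 ± 0.055 (adjusted p = 4.09e-06), with 690 to 1053 normalised counts in the lithium libraries (median 819) and 499 to 1010 in the fluoxetine libraries (median 640.1). Impa2 differed by 0.21 ± 0.059 (adjusted p = 0.0117), Impa1 by 0.13 ± 0.031 (adjusted p = 0.003) and Cdipt by 0.12 ± 0.028 (adjusted p = 0.00172). Ppip5k1 was just past the threshold at 0.08 ± 0.027 (adjusted p = 0.0382), and leaving out 1 of 39 libraries ended its call in 19 cases (adjusted p from 0.0166 to 0.0709), as did removing the GC and length trends (0.07, adjusted p = 0.0842). The synthase gene Isyna1 did not differ detectably (0.02 ± 0.067, adjusted p = 0.9, 95% interval -0.12 to 0.15).

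None of the 10 genes passed for genotype. In the average of all drugs and sexes 0.358% of all genes were called, and Slc5a3 was nearest, with HT above WT by 0.13 ± 0.044 (adjusted p = 0.258). Among vehicle females 6.2% of all genes, or 1109, were called, and 20 without WT vehicle female replicate 3, the library whose Ash1l level went against its label. With that library, 4059 of all genes tested had an unadjusted p below 0.05. Of the 10 genes, 5 did: Inpp1 (0.20 ± 0.071, adjusted p = 0.0725), Slc5a3 (0.30 ± 0.11, adjusted p = 0.0773), Gsk3a (-0.18 ± 0.067, adjusted p = 0.0923), Impa1 and Gsk3b. These values rest on the same WT vehicle female libraries as the lithium and fluoxetine responses of WT females. DESeq2 called Inpp1 (adjusted p = 0.0366) and Slc5a3 (adjusted p = 0.0438) in this comparison. The 6.2% of all genes is the share by limma and not by DESeq2. The range of the count of all genes over the alternatives is given in the last section. With limma, Inpp1 passed without HT vehicle female replicate 5 (0.22, adjusted p = 0.0414) and Slc5a3 without WT vehicle female replicate 5 (0.35, adjusted p = 0.0483). Among vehicle males, lithium females and lithium males none of the 10 passed, and 0.00559% of all genes were called in each. Between females and males none passed (0.117% of all genes called), and Bpnt1 was nearest, lower in females by -0.07 ± 0.021 (adjusted p = 0.172).

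The 10 genes varied to different degrees across the 12 groups. The ratio of the highest to the lowest group mean was 1.13 for Bpnt1, 1.15 for Gsk3a and Inpp1, 1.18 for Ppip5k1, 1.187 for Gsk3b, 1.24 for Isyna1, 1.25 for Impa1 and Cdipt, 1.297 for Impa2 and 1.64 for Slc5a3. When the groups were put in order of their means, neighbours differed by less than the larger of their SDs in all 11 pairs for 8 of the 10 genes and in 10 of 11 pairs for Slc5a3 and Cdipt. The ordering itself makes the gaps between neighbours small, so no conclusion is drawn from these counts. The 4 lithium groups were the 4 highest of 12 for Cdipt, from 3698 ± 243 in WT females to 4049 ± 148 in HT females, with fluoxetine WT females next at 3695 ± 207 (SD, n = 5, or 4 for HT lithium females). They were also the 4 highest for Ppip5k1, from 3893 ± 227 in HT males to 4034 ± 134 in WT males, with fluoxetine HT males next at 3868 ± 166 (SD, n = 5). For Impa1 the lithium groups were 4 of the 5 highest, and the other was fluoxetine WT males at 1998 ± 74.6 (SD, n = 5). For Slc5a3 the lowest groups were fluoxetine WT females (537 ± 42.7, SD, n = 5) and fluoxetine HT males (589 ± 90.9, SD, n = 5), and the highest was lithium HT females (879.7 ± 118, SD, n = 4).

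The genes whose group means followed these patterns most closely were found by Pearson's correlation over the 12 group means, which share libraries, normalisation and the 2 libraries that stood apart. For Gsk3b they were Usf3 (r = 0.975), Cacnb4 (0.967) and Pdpk1 (0.961), for Impa1 Tspan13 (0.937), Fbxw11 (0.937) and Tmem177 (0.918), and for Isyna1 Dtx3 (0.918), Sppl2b (0.914) and Hrh3 (0.908). These are descriptions of the closest of 17875 genes, with no test.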

How the data were processed

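Poly(A) RNA of 59 prefrontal cortex samples was sequenced with a stranded kit, per the labels' protocols. The authors deposited 1 table of signal values, which are gene counts divided by a size factor for each library. The submitters' processing notes name the build GRCm38, DESeq2 1.19.11, Salmon 0.11.2 and R 3.6.0, without roles. What annotation, strand setting and gene filter were used was not given in the sources used here. The steps between low values gave back whole reads for 100% of values within 0.01, or 24.47 to 36.32 M reads for each library, and reads without molecular identifiers are not independent molecules.

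Genes with a normalised count of at least 10 in at least 5 libraries were tested, which kept 17875 of 18088. limma 3.58.1 (R 4.3.3, trend and robust) was fitted to log2(normalised count + 1) with 1 mean for each of the 12 groups over all 59 libraries, with Benjamini-Hochberg adjustment across the whole set of genes tested. The script was tested on simulated data. Alternatives were a pseudocount of 10, no filter, TMM factors, edgeR 4.0.16 and DESeq2 1.42.0 on the recovered reads, fits of only the groups compared, the replicate number as a block, leaving out the 2 libraries that stood apart, removing each library's trends over GC content and gene length, and leaving out each library in turn. Same-numbered libraries did not deviate together (mean correlation -0.0051 against 0.0013 for different numbers), so the numbers were not treated as pairs.

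All 10 genes are described in every group. From each related list the called genes with the smallest adjusted p under lithium are named, up to 6 a list, or the 2 smallest where none was called, and for likeness the 3 closest genes of Gsk3b, Impa1 and Isyna1. The genes and lists were chosen with earlier results of these data known. Gene positions are from GENCODE M21, and 18077 of 18088 genes had a symbol.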

Additional observations from a re-analysis of the deposited data

Results flagged for a closer look

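In 6 of 120 combinations of gene and group, 1 library lay farther from its nearest neighbour than Dixon's 95% limit for the group's range, which chance gives in about 1 in 20 groups. Gsk3b was at 6919 in WT lithium female replicate 3, with the next library of its group at 6554. Impa2 was at 110.7 in HT fluoxetine male replicate 4, below the next at 136.8, and at 190.3 in HT vehicle male replicate 5, above the next at 153. Bpnt1 was at 1421 in HT fluoxetine female replicate 2, below the next at 1531, and at 1866 in WT vehicle male replicate 2, above the next at 1611. Isyna1 was at 1166 in WT vehicle female replicate 3, above the next at 762. The last 2 come from the libraries that stood apart from their groups.

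In 3 cases every drug library lay above the vehicle mean in 1 combination of genotype and sex and below it in another that differs by 1 factor. The lithium response of Gsk3a was higher in HT females than in WT females by 0.33 on the log2 scale and higher than in HT males by 0.25. The fluoxetine response of Impa1 was higher in WT males than in HT males by 0.30. Only the genes described here were screened for such opposite cases, and their share over all genes was not counted. How often chance gives such a case is therefore not known. These 3 differences between combinations were not tested by themselves, and the terms for genotype and for sex over all libraries did not pass for either gene by limma, while DESeq2 called the genotype term of the fluoxetine response of Impa1 (adjusted p = 0.0463).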

How the results depend on the processing

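With lithium in the average of genotypes and sexes, Cdipt, Impa1 and Ppip5k1 kept their calls in all 9 alternatives and without any 1 of 39 libraries. Gsk3b changed sign with the GC and length trends removed (0.0166) and without 20 of the 39 libraries (values without 1 library -0.0284 to 0.0174). Within combinations, where the count of the 10 genes called was 2 in WT females given lithium, it was 1 with TMM factors, with edgeR and with the replicate number as a block (Ppip5k1 lost, adjusted p = 0.0542), and 0 in the fit of only the groups compared, without the 2 libraries that stood apart, and with the GC and length trends removed. Leaving out 1 library gave 0 to 2. The block changed no other call of the 10 genes. In WT males given lithium the count was 0, and 1 with a pseudocount of 10 and with DESeq2 (0 to 1 without 1 library). In HT females given lithium it was 1, and 0 with the trends removed (0 to 1 without 1 library). With fluoxetine the average count was 1, and 2 with the trends removed, where Inpp1 was added (0.09, adjusted p = 0.0377; 1 to 2 without 1 library). In WT females given fluoxetine it was 0, and 1 with DESeq2, without the 2 libraries and with the trends removed (0 to 1 without 1 library). In HT males given fluoxetine it was 1, and 0 in the fit of only the groups compared (Slc5a3, adjusted p = 0.0581; 0 to 1 without 1 library). Among vehicle females HT against WT gave 0, and 2 with DESeq2 (0 to 1 without 1 library), and fluoxetine by genotype gave 0, and 1 with DESeq2. The cause was not tested in any of these. Of the lists, the phosphoinositide cycle had 5 called, 3 with the trends removed and 3 to 5 without 1 library. The other lithium-sensitive enzymes had 0 called, 1 without the 2 libraries and 0 to 1 without 1 library.

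The number of all genes called depended on the alternative most within combinations. For lithium it was 438 in WT females (8 to 878 over the alternatives), 85 in WT males (1 to 274), 532 in HT females (20 to 1282) and 45 in HT males (28 to 187). For fluoxetine it was 509 in WT females (201 to 725), 152 in WT males (0 to 468), 0 in HT females (0 to 5, with 1370 at an unadjusted p below 0.05) and 1026 in HT males (220 to 1809). For HT against WT it was 1109 in vehicle females (0 to 1701, and 20 without WT vehicle female replicate 3), 1 in vehicle males (0 to 2), 1 in lithium females (1 to 8), 1 in lithium males (0 to 3) and 64 in the average (60 to 104). Females against males gave 21 (21 to 58), genotype by sex in vehicle 519 (0 to 1196), fluoxetine by genotype 7 (0 to 116) and fluoxetine by sex 76 (5 to 178). Lithium by genotype gave 0 (0 to 5) and lithium by sex 0 (0 to 2), with the most by DESeq2 in both, and 1700 and 1041 genes at an unadjusted p below 0.05. Of the 10 genes Isyna1 varied most between libraries of a group (median CV 13.4%), and Impa2 had the fewest reads, at 110.7 to 199.5 normalised counts.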
